A study of Mus musculus with 6 samples.

Results

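The AP-1 transcription factor genes described here are Fos, Fosb, Fosl1, Fosl2, Jun, Junb, Jund, Atf3 and Batf. They were taken by gene symbol (FOS, FOSB, FOSL1, FOSL2, JUN, JUNB, JUND, ATF3 and BATF as the deposited tables spell them), which gave 9 of the 19378 genes of the series. Chromatin carrying a histone mark was profiled by position in 6 mouse sections, 1 per group. The groups were adult wild-type brain (H3K4me3, 20 µm), wild-type whole embryo at E11.5 (H3K27ac, H3K27me3 and H3K4me3, 16 µm each), and adult paw for H3K27ac from a mouse with CIA (collagen-induced arthritis) at 42 days and from a control at 42 days (4 µm, formalin-fixed, paraffin-embedded and decalcified, cut around the ankle's talus bone). Sections lay on DNA arrays whose spots carry barcode pairs. An antibody against the mark directs protein A fused to Tn5, a transposase, which cuts the nearby chromatin and links it to the barcodes of its spot. For the brain 8 members were analysed (without Jund), for the arthritic paw 7 (without Junb and Jund) and for each of the other 4 sections all 9. Jund in the brain and both genes in the arthritic paw were not analysed here. The labels do not say how many animals stand behind a section.

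AP-1 is a dimer. Proteins of the Fos family (Fos, Fosb, Fosl1, Fosl2) pair through a leucine zipper with proteins of the Jun family (Jun, Junb, Jund), Jun proteins can also pair with each other, and Atf3 and Batf join Jun proteins in further dimers. The dimers bind DNA at the motif TGANTCA or at the related cyclic AMP response element (CRE). Fos, Jun and several relatives are immediate early genes, switched on within minutes by growth factors, stress or cytokines through MAP kinases and serum response factor. In the inflamed joint AP-1 is known for driving matrix-degrading enzymes and cytokines, in bone for osteoclast formation, and in neurons for the response to activity. H3K4me3 marks active promoters, H3K27ac active promoters and enhancers, and H3K27me3 genes held silent by Polycomb complexes.

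The promoters of Fos, Jun and Junb are shown because Fos was high in every section, Jun differed most between the paws and Junb differed between the embryo marks. The sequences are from RefSeq (GRCm38.p6), whose table matched 8 of the 9 members, all but Fosl1. Each window is the 250 bases before the start of transcription, 5′ to 3′ on the gene's strand: Fos at chr12:85473640-85473889 (plus strand), Jun at chr4:95052223-95052472 (minus strand) and Junb at chr8:84978749-84978998 (minus strand). The deposited values were made with other builds, and which part of a gene was counted is not given in the sources used here. Capitals mark matches on either strand to the AP-1 site TGANTCA, the CRE-like site TGACNTCA, the short CRE site TGACGT, the TATA box TATAAA and the CCAAT box CCAAT.
Fos: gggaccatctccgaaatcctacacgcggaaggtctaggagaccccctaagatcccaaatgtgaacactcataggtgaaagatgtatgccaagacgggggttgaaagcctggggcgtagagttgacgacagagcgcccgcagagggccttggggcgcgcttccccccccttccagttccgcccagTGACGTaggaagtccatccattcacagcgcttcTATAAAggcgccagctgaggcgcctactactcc
Jun: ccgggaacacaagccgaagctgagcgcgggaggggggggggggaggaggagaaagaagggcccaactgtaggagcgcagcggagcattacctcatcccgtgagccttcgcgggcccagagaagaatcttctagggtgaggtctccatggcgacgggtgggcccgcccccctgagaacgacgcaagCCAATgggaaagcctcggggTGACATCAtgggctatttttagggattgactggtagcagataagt
Junb: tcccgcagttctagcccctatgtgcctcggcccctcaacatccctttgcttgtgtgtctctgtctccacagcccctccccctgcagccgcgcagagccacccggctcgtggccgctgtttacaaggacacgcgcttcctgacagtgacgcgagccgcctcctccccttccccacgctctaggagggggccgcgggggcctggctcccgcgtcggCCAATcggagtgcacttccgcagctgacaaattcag
In Fos the capitals are a short CRE site that begins 66 bases and a TATA box that begins 33 bases before the start. In Jun they are a CCAAT box at 65 bases and the CRE-like TGACATCA at 45 bases, and in Junb a CCAAT box at 36 bases. The short CRE site was also matched in Atf3 (8 bases before the start, on the other strand) and Batf (98 bases), so that 3 of 8 members held it against 6.47% of all 32851 promoters of the table. A CRE-like site was matched in 1 member (7.49% of all promoters), a TATA box in 1 (12.4%), a CCAAT box in 2 (33.8%) and TGANTCA in 0 (6.75%). A short site that lies within a full CRE is counted under both names. These are matches of letters and do not show binding.

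All levels below are reads recovered from the deposited signal per gene and spot. The relative level of a gene is its mean reads per spot over that of the section's mean gene, so 1 is the mean gene. Its rank is the percent of the section's genes with fewer reads, with genes of equal reads placed at the middle of their tie. Relative levels, ranks and reads per 10000 are taken over each section's own genes, 11130 in the arthritic and 19378 in the control paw. They are thus not on 1 scale between sections. The sections held 403483 (embryo H3K4me3) to 5981684 reads (control paw) in 248 to 1200 spots, with a median of 1179 (brain) to 10114.5 reads per spot (control paw). Per gene the median was 274 reads in the arthritic paw, 142 in the control paw and 120 in the brain, but 7 to 14 in the embryo, where single members are thinly covered. Because each group is 1 section, there is no spread between animals, no test was possible, and every difference describes these sections alone. Intervals are exact binomial (Clopper-Pearson) 95% intervals that cover counting error only, and reads without molecular identifiers are not independent molecules. A spot holds many cells, so fewer cells carrying a mark and less of the mark per cell cannot be told apart.

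Marker genes were ranked in each section, and the neuronal and embryo lists did not set their own tissue apart from the control paw. Of 6 neuronal markers, 5 ranked above the median gene in the brain, with a median rank of 87.4, but the list's median rank was also 83.7 in the control paw and 90.9 in the arthritic paw (5 held). Embryo markers had a median rank of 84.4 in the control paw, against 57.4, 80.8 and 78.6 for embryo H3K27ac, H3K27me3 and H3K4me3. Within the control paw, cartilage markers had a median rank of 80.0 and skeletal muscle markers 75.1, but cartilage markers were also at 78.6 for embryo H3K4me3. Synovial fibroblast, osteoclast and bone markers were at 79.5, 69.1 and 67.6 in the control paw, but oligodendrocyte markers were there at 78.7. Epidermis, macrophage and endothelium markers were at only 17.4, 25.7 and 37.8 in it. Within the arthritic paw, over its smaller set of genes, cartilage and skeletal muscle markers had 46.6 (3 of 6 held) and 60.2. No marker held by a section was at 0 reads, but this does not cover the markers that a section does not hold. Reads correlated weakly with gene length (Spearman 0.145 to 0.193 across genes, which are not independent replicates).

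Fos, the founding member and the classic immediate early gene, was far above the mean gene in all 6 sections. Its relative level was 2.47 in the brain (443 reads), 3.12 in the arthritic paw (1497), 2.48 in the control paw (765), and 2.21, 2.67 and 2.42 for embryo H3K27ac, H3K27me3 and H3K4me3 (64, 105 and 54 reads). Each value is over its own section's mean gene, and on that footing the silencing mark H3K27me3 lies within the range of the 6. Over genes held by both paws Fos was at 3.12 in the arthritic and 1.89 in the control paw. Over genes held by both H3K4me3 sections it was at 2.43 in the brain and 1.95 in the embryo. Its rank was 92.0 to 95.2, which made Fos the only one of the 7 members held by all sections to rank at 90 or above in each. Of all 9471 genes held by every section, 391 did so, or 4.13%. Per kilobase of gene span, a ranking added after the data were seen, Fos ranked at 97.6 to 98.7. The other short members also rank higher on that scale, since Fos, Jun, Junb and Jund span only 3385, 3187, 1840 and 2878 bases.

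**Figure D1:**
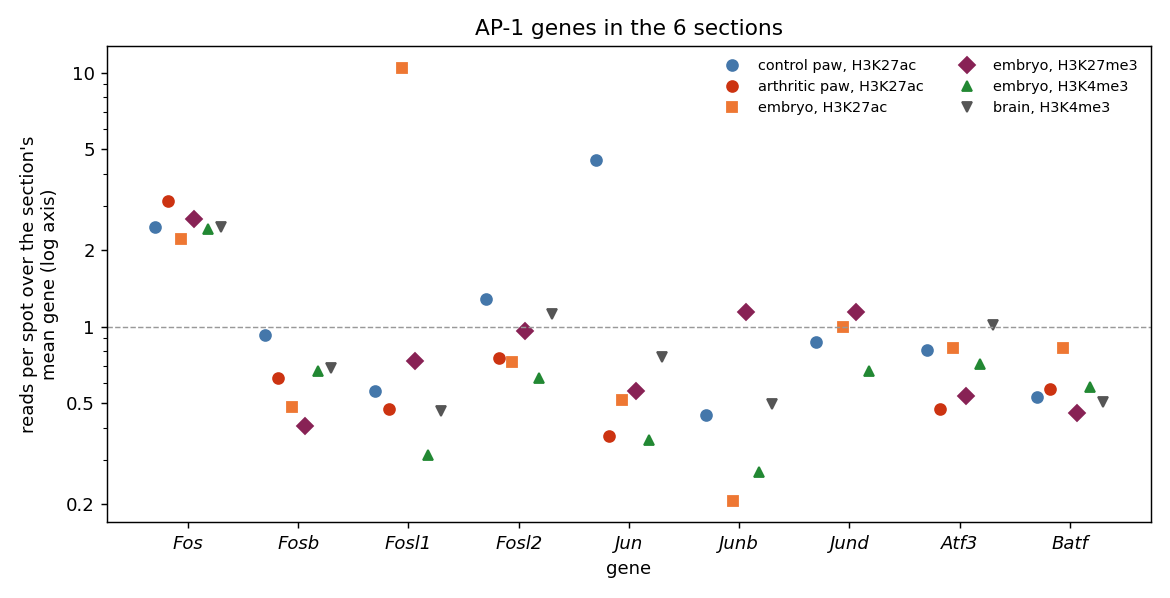
Relative level (mean reads per spot over the section's mean gene, log axis) of the 9 AP-1 genes in the 6 sections, 1 point per gene and section, with the mean gene as a dashed line. The 6 Fos points lie between 2.21 and 3.12, Fosl1 reaches 10.5 in embryo H3K27ac alone, and Jun reaches 4.56 in the control paw alone.

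The other 3 Fos family genes were mostly at or below the mean gene. Fosb, like Fos an immediate early gene and known in brain for lasting splice forms after repeated activity, had relative levels of 0.691 in the brain (124 reads), 0.627 in the arthritic paw (301), 0.927 in the control paw (286), and 0.483, 0.407 and 0.672 for embryo H3K27ac, H3K27me3 and H3K4me3 (14, 16 and 15 reads). The embryo values rest on 14 to 16 reads each, and the control paw is the highest of the 6, each over its own section's genes. Fosl2, a member with known roles in bone and cartilage, stood at 1.13 in the brain (202 reads), 0.754 in the arthritic paw (362), 1.29 in the control paw (398), and 0.725, 0.965 and 0.627 in the embryo (21, 38 and 14). Fosl1, which encodes Fra-1, had 0.468 in the brain (84), 0.475 in the arthritic paw (228), 0.557 in the control paw (172), 0.737 for embryo H3K27me3 (29) and 0.313 for embryo H3K4me3 (7). In embryo H3K27ac it had 304 reads and a relative level of 10.5.

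In the Jun family, the control paw stood apart for Jun and the H3K27me3 section for Junb. Jun, the main partner of Fos, had a relative level of 0.758 in the brain (136 reads), 0.371 in the arthritic paw (178) and 0.518, 0.559 and 0.358 in the embryo (15, 22 and 8), against 4.56 in the control paw (1407 reads, a lower bound, since 10.3% of them lay where the recovery is no longer exact). Its rank was 97.2 in the control paw and 29.5 in the arthritic paw. Junb, which often opposes Jun in cell growth, had 0.496 in the brain (89), 0.45 in the control paw (139), 0.207 and 0.269 for embryo H3K27ac and H3K4me3 (6 reads each) and 1.14 for embryo H3K27me3 (45). Jund, the member expressed most steadily across tissues, had 0.868 in the control paw (268) and 1.00, 1.14 and 0.672 in the embryo (29, 45 and 15). Atf3, a stress-induced factor, had 1.02 in the brain (183 reads), 0.477 in the arthritic paw (229), 0.810 in the control paw (250) and 0.828, 0.534 and 0.716 for embryo H3K27ac, H3K27me3 and H3K4me3 (24, 21 and 16). Batf, a partner of Jun in T and B cells, had 0.507 in the brain (91), 0.569 in the arthritic paw (273), 0.531 in the control paw (164) and 0.828, 0.457 and 0.582 in the embryo (24, 18 and 13). Both were near or below the mean gene in every section.

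The paws ask how H3K27ac at these genes differs in a joint with CIA. In the arthritic paw Jun was 8.19-fold lower than in the control paw, relative to the median of all genes, and no other member differed by 2-fold. Differences between sections are log2 ratios after 0.1 was added to each relative level, here taken over the genes held by both sections. From these the median over all genes compared was taken off (0.11 here, over 11130 genes). A gene is counted as higher or lower beyond a distance of 1, or 2-fold. Of the 7 members compared, 0 were above that distance and 1 below, against 9.84% and 9.04% of all genes. The median of the members was -0.26.

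For Jun the log2 ratio was -3.03 (-3.22 to -2.85), with 178 reads in the arthritic and 1407 in the control paw, and 1.30% of all genes lay lower. Fos was at 0.58 (0.46 to 0.71), from 1497 and 765 reads in 943 and 554 spots. Batf was at 0.30 (0.06 to 0.53) and Fosl1 at 0.02 (-0.22 to 0.26). On the other side, Fosb was at -0.26 (-0.47 to -0.05), Atf3 at -0.42 (-0.65 to -0.20) and Fosl2 at -0.45 (-0.64 to -0.26). Members thus lay on both sides of the median gene, with Fos above it and Jun below. With the deposited values in place of recovered reads, Fosb turned to 0.31 and the members' median to 0.01.

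**Figure D2:**
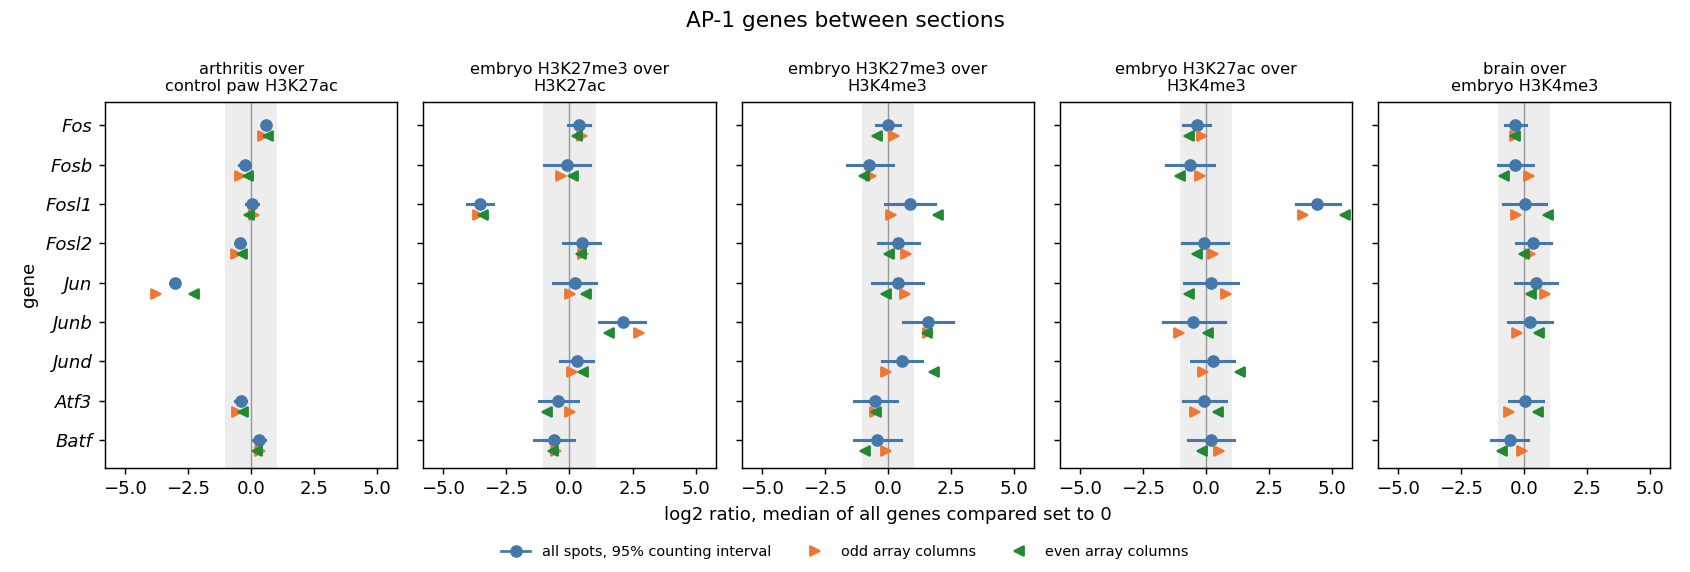
Log2 ratios of the AP-1 genes in the 5 comparisons, with the median of all genes compared set to 0. Blue points and bars are all spots with their 95% counting interval, triangles below them are odd and even array columns alone, and grey marks less than a 2-fold difference. Jun lies at -3.03 between the paws, Fosl1 at -3.55 and 4.42 where embryo H3K27ac is compared, and Junb at 2.12 and 1.62 where embryo H3K27me3 is compared.

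The Jun reads of the control paw were concentrated in array columns 1, 5, 9, 13, 17 and 21, every 4 columns. Jun had 655 reads there, or 8.48 per 10000 reads, against 1.44 per 10000 in the other columns, a ratio of 5.87. Among columns with at least 30000 reads, the 5 such columns lay between 6.48 (column 9) and 9.20 (column 13). The 16 others lay between 0.607 (column 4) and 2.21 (column 12), so the groups of columns did not overlap. The 6 columns were set with earlier results of these data known. Their separation and ratio therefore describe the pattern and are not independent support for it. Column 1 had no Jun read among 722 reads in all, too few to show the pattern. Of the 7105 genes with at least 200 reads in this section, 112 (1.58%) reached 5 times in these columns. No other member did: the ratio was 0.837 to 1.55 for the other 8, with Junb at 1.55 and Fos at 1.51. In the arthritic paw the Jun ratio was 0.939, and its columns ranged from 0.127 to 0.667 per 10000.

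Without those 6 columns in the control paw, the Jun difference between the paws was smaller and kept its direction, at -2.38, and -2.36 without them in both paws. On odd columns alone, which hold all 6, it was -3.78, and on even columns alone -2.27. Even outside the 6 columns, Jun in the control paw (1.44 per 10000) stood above its level in the arthritic paw (0.333 per 10000). Over the 13 alternatives run for this comparison the Jun value ran from -4.95 with the deposited values to -1.75 with a pseudocount of 1. The part of the array's barcodes in this pattern was not tested.

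**Figure D3:**
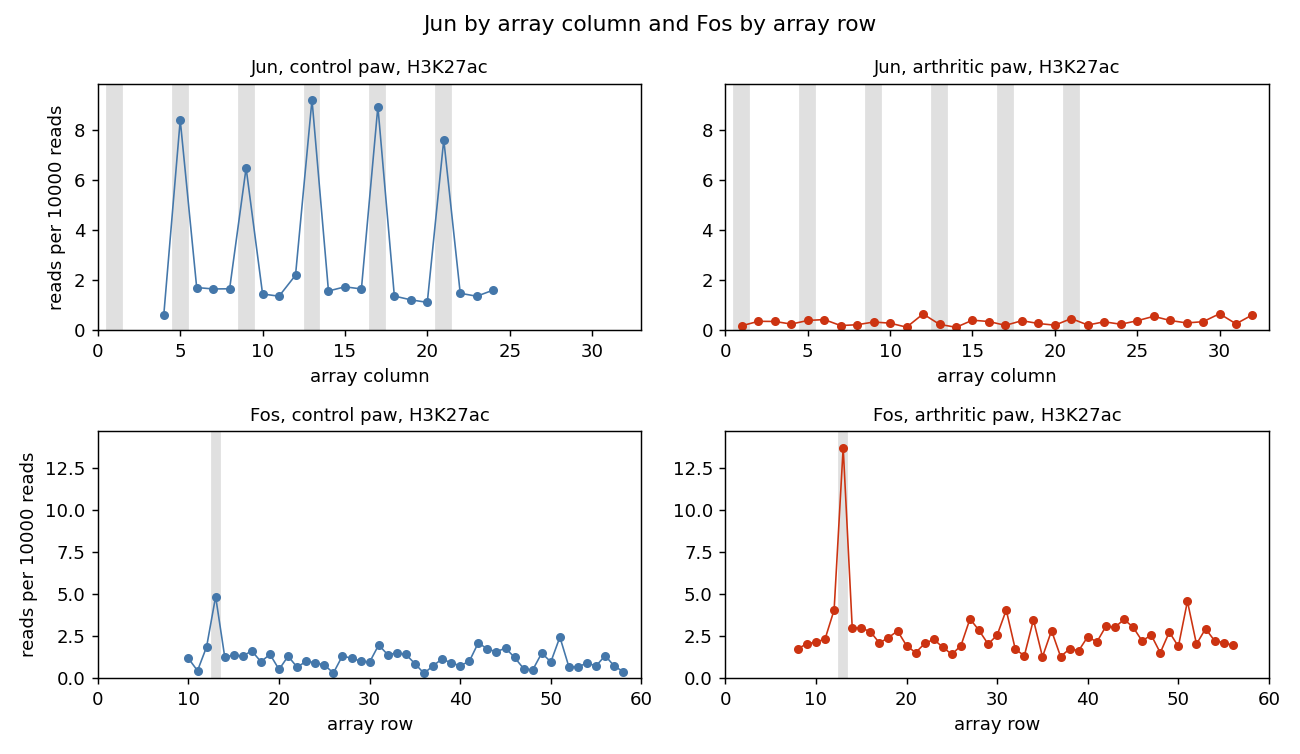
Jun reads per 10000 reads by array column (top) and Fos reads per 10000 reads by array row (bottom), in the control paw (left) and the arthritic paw (right), for columns of at least 30000 and rows of at least 20000 reads. Grey marks columns 1, 5, 9, 13, 17 and 21 and row 13. Jun peaks at 6.48 to 9.20 in the grey columns of the control paw only, and Fos peaks in row 13 of both paws, at 4.86 and 13.7.

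Fos showed a line of a different kind, in array row 13 of both paws. In the arthritic paw, row 13 held 269 of the 1497 Fos reads over 29 spots, or 13.7 per 10000, against 2.39 in the rest of the section, a ratio of 5.76. In the control paw the same row held 104 of 765 reads over 17 spots, or 4.86 per 10000 against 1.15, a ratio of 4.24. The next highest row was row 51 in both paws, with 4.58 and 2.45 per 10000. Row 13 was picked because the map showed Fos high there in both paws, and a cut of 4 times lies below both Fos ratios. Fos was therefore bound to pass this cut. Of 5214 genes with at least 200 reads in both paws, 2 (0.0384%) had at least 4 times as many reads per 10000 there. Besides Fos, Ptrhd1, a peptidyl-tRNA hydrolase domain gene, did so, at 5.97 and 4.33. None of the other 6 members compared did, with ratios of 0.594 (Fosl2, arthritic) to 1.45 (Atf3, arthritic).

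The row moved the Fos results little. Without row 13 in both paws, an alternative added after the map was seen, the difference between the paws was 0.51 in place of 0.58. Leaving out, in each section, the row with the highest Fos value among rows of at least 20000 reads, the rank was still 90.8 (embryo H3K27ac) to 94.4 (brain). In the brain the highest of such rows were 26 and 54, at 6.53 and 4.90 per 10000 (27 and 29 reads), against 2.09 outside row 26. Some shallower rows, which stayed in, were higher on few reads, such as brain rows 61 and 25 with 12 Fos reads each (11.7 and 11.0 per 10000) and embryo H3K4me3 row 48 with 7 (3.62). The part of the array's barcodes in this line was not tested.

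**Figure D4:**
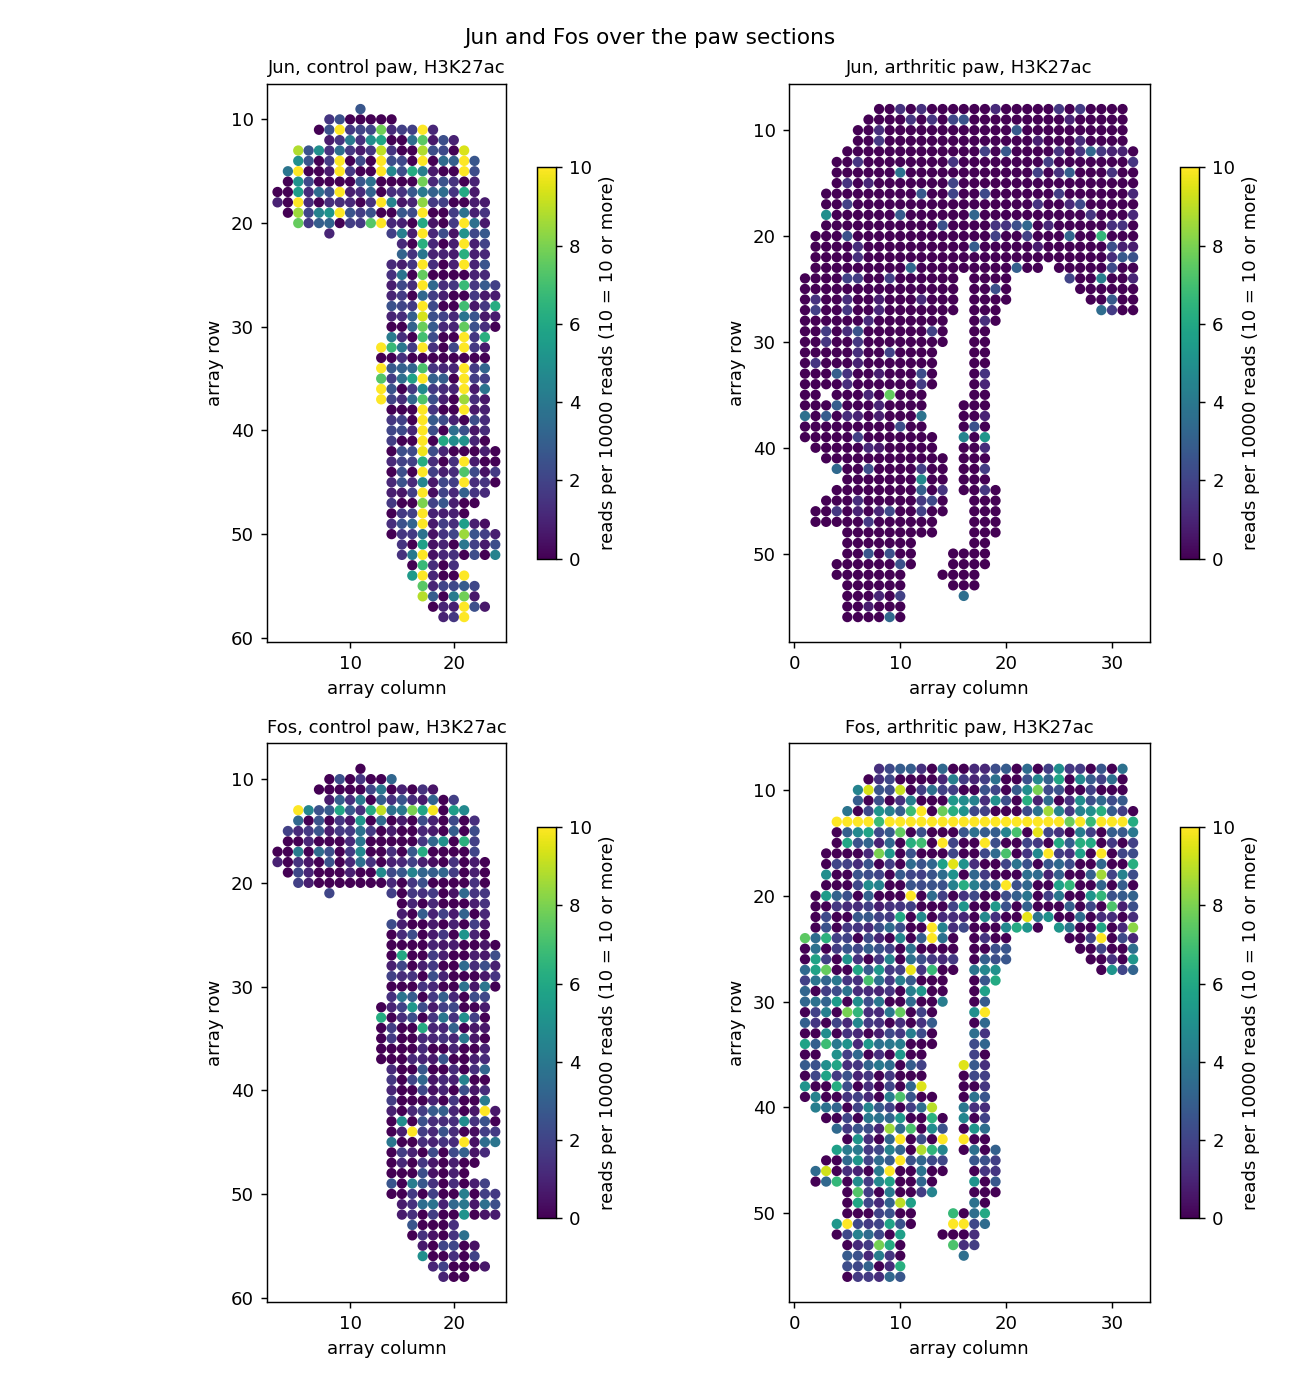
Jun (top) and Fos (bottom) reads per 10000 reads in each spot of the control paw (left) and the arthritic paw (right), by array column and array row, for spots of at least 1000 reads; the colour scale ends at 10. Jun forms upright lines 4 columns apart in the control paw, where its ratio in those columns was 5.87, and Fos forms a level line in row 13, clearest in the arthritic paw at 13.7 per 10000.

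Across the spots of a paw, most pairs of members showed little common variation. Over the 15 pairs of members with at least 200 reads, the correlation of reads per 10000 ran from -0.069 to 0.048 in the arthritic paw (943 spots) and from -0.059 to 0.203 in the control paw (554 spots), with medians of -0.027 and -0.023. Over all pairs of genes with such reads the medians were -0.002 and -0.005. The highest pair was Fosl2 and Atf3 in the control paw, at 0.203, above the 95th percentile of all gene pairs there (0.111). That percentile is for a single pair, and the highest of 15 pairs passes it more easily. In the arthritic paw Fosl2 and Atf3 were at 0.041. The spots of a section share a library and these counts are sparse, so the values are descriptions. Fos was in 67.6% of arthritic spots (64.5 to 70.5) and 60.6% of control spots (56.4 to 64.7), and Jun in 16.5% (14.2 to 19.1) and 77.4% (73.7 to 80.9). Such shares depend on depth, and the median spot had 5296 reads in the arthritic and 10114.5 in the control paw. The spot counts of Jun in the control paw varied 4.20 times as much as depth and Poisson sampling give, those of Fos 2.21 and 2.18 times in the arthritic and control paws, and those of the other members 0.855 to 1.10 times in either paw.

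The genes most like each member over spots were those with the highest correlation among genes of at least 200 reads. For Fos in the arthritic paw they were Ptrhd1 (0.29), Zeb2 (0.27) and Syncrip (0.16). The best matches of Fosb, Fosl2 and Atf3 there were Plekhm1 (0.18), Elovl2 (0.15) and Tctex1d1 (0.15), all weak. In the control paw Fos and Fosb matched Aipl1 (0.67) and Fgf12 (0.64), but with the 4 spots of under 1000 reads left out their best matches were Arhgap17 (0.26) and Zfp740 (0.21). Fosl2 and Atf3 matched Gas2 and Alas1 (0.29 each), and Alas1 held 5.49 times as many reads per 10000 in the 6 columns, against 1.81 for Gas2. Chosen after the values were seen, the genes most like Jun in the control paw were Il17d (0.66), Scn2b (0.65) and Gm21083 (0.62), which held 5.31, 6.70 and 11.6 times as many reads per 10000 in the 6 columns.

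Cell type marker lists differed between the paws beside these values, and lists of brain cells shifted as well. Their medians are centred log2 ratios over genes of both paws, whereas their sums per 10000 reads rest on each paw's own genes, which raises the arthritic side: Fos was at 2.80 and 1.28 per 10000 but at 0.58 centred. Epidermis markers had a median of 0.67 (4 of 8 compared) and summed to 7.49 per 10000 in the arthritic and 3.03 in the control paw, and skeletal muscle markers a median of 0.39 (6 of 6) with 7.07 and 2.89. Neutrophil markers had a median of -0.78 (6 of 8) with 2.59 and 4.68, and B cell markers -1.21 (3 of 5) with 1.35 and 5.21. Macrophage markers (2 of 8) were at -0.41 with 0.604 and 0.684, and synovial fibroblast markers (7 of 8) at -0.19 with 9.18 and 4.11. Cartilage markers (3 of 6) were at -0.68 with 1.48 and 1.95, endothelium (3 of 6) at -0.75 with 0.816 and 2.11, bone (6 of 6) at -0.03 with 7.54 and 4.90, osteoclast (4 of 6) at 0.12 with 2.95 and 2.47, and T cell markers (4 of 7) at 0.05 with 4.18 and 2.03. Of the brain cell lists, astrocyte markers (2 of 5) were at -1.12, neuronal markers (5 of 6) at -0.37 and oligodendrocyte markers (4 of 5) at 0.19. Genes within a list went both ways, such as Ms4a1 at -3.35 and Pax5 at 0.46 for B cells, or Cebpe at -2.52 and Mpo at 0.47 for neutrophils. The medians are therefore not read as shares of cells. None of the markers compared was at 0 in either paw, which does not cover the markers left out of the comparison. The part of the markers in the AP-1 values was not tested.

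Wider lists of genes around AP-1 were also compared between the paws, beside the shares of 9.84% and 9.04% given above. Of 27 other bZIP partners, 18 were compared, with 1 above and 0 below the 2-fold distance and a median of -0.20; the 1 was Ddit3, a stress factor that pairs with C/EBP proteins, at 2.67 (2084 reads in the arthritic and 222 in the control paw). Of 23 genes of the MAP kinase input, 16 were compared, with 2 above (the p38 kinase Mapk12 at 3.53 and its activator Map2k6 at 1.92, both with arthritic reads that are lower bounds) and 2 below (the p38 kinase Mapk13 at -1.53 and Map2k2, which activates ERK, at -1.43), and a median of -0.21. Of 29 serum response factors and immediate early genes, 21 were compared, with 2 above and 3 below and a median of -0.22. The zinc finger gene Egr1, induced like Fos, was at 2.06 (2534 and 445 reads), and its relative Egr3 at -2.13 (391 and 1458). Of 30 AP-1 targets of inflammation and matrix, 18 were compared, with 2 above (the adhesion receptor Cd44 at 1.56 and the osteoclast factor Nfatc1 at 1.16) and 0 below, and a median of -0.11.

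In the embryo the question is how the 3 marks divide over these genes. Fosl1 had the most H3K27ac reads of the 9 members and stood 21.4-fold higher there than for H3K4me3 and 11.7-fold higher than for H3K27me3, on the centred scale. Junb stood 4.35-fold and 3.07-fold higher for H3K27me3 than for H3K27ac and H3K4me3. Each mark is a separate section, the 3 comparisons share sections in pairs, and they are given side by side only.

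For H3K27ac over H3K4me3 (17762 genes, median before centring 0.20) Fosl1 was at 4.42 (3.55 to 5.30), from 304 and 7 reads, and 0.512% of all genes lay at or above it. It was the 1 member above, and 0 were below, against 12.9% and 12.3% of all genes. The other 8 lay between -0.65 (Fosb) and 0.26 (Jund), and the members' median was -0.06. For H3K27me3 over H3K27ac (18653 genes, -0.12) Fosl1 was at -3.55 (-4.07 to -3.05), from 29 and 304 reads, the 1 member below, and Junb at 2.12 (1.17 to 3.01), from 45 and 6 reads, the 1 member above. The shares over all genes were 11.6% below and 12.3% above. The members' median was 0.20, and Batf was the next lowest at -0.63 (-1.42 to 0.18). For H3K27me3 over H3K4me3 (17837 genes, 0.08) Junb was at 1.62 (0.62 to 2.59), from 45 and 6 reads, the 1 member above, with 0 below, against 13.3% and 11.1%. Fosl1 was next at 0.88 (-0.12 to 1.88) and the median was 0.39. With a pseudocount of 1, Junb fell inside the 2-fold distance in both comparisons, at 0.85 and 0.69.

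**Figure D5:**
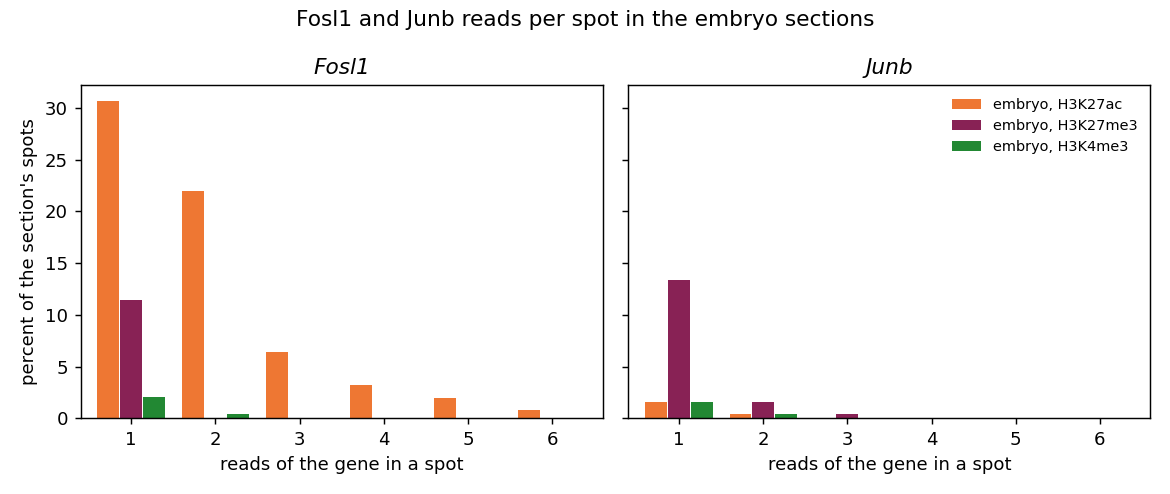
Percent of spots with 1 to 6 reads of Fosl1 (left) and Junb (right) in the embryo sections for H3K27ac (251 spots), H3K27me3 (254) and H3K4me3 (248); spots with no read are not drawn. Fosl1 had a read in 64.9% of H3K27ac spots against 11.4% and 2.42% for the other marks, and Junb had a read in 15.4% of H3K27me3 spots against 1.99% and 2.02%.

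The Fosl1 reads were spread over the H3K27ac section. They lay in 163 of 251 spots (64.9%, 58.7 to 70.8), with 1 read in 77 spots, 2 in 55 and at most 6. Their spread between spots was 0.977 times that of depth and Poisson sampling. Over 4 bands of array rows it had 4.97 to 6.25 reads per 10000, odd and even columns 5.30 and 5.77. The highest row (row 33) had 10.7 per 10000 from 22 reads, and without it the rank was 99.0. Odd and even columns gave 3.85 and 5.51 for H3K27ac over H3K4me3 and -3.65 and -3.45 for H3K27me3 over H3K27ac. In the 6 columns where Jun was high in the control paw, the Fosl1 ratio here was 0.628, on 12 reads. A stripe in other columns would not show in this ratio.

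The gene models of Fosl1 and Ccdc85b overlap in GRCm38.p6 (a gap of -2775 bases, with Fosl1 at chr19:5447698-5455938), and how the authors counted reads in such an overlap is not given in the sources used here. Ccdc85b, a coiled-coil gene, had 7 reads in embryo H3K27ac beside the 304 of Fosl1, but 30 beside 29 for H3K27me3 and 8 beside 7 for H3K4me3. In the control and arthritic paws and the brain it had 160, 282 and 71 beside 172, 228 and 84. The large Fosl1 count was thus found on 1 of the 2 overlapping genes and under 1 mark. Junb's 45 H3K27me3 reads lay in 39 of 254 spots (15.4%, 11.2 to 20.4), and odd and even columns gave 2.76 and 1.58 over H3K27ac and 1.60 and 1.58 over H3K4me3. Jund and its neighbour Iqcn, 705 bases apart, had nearly equal reads in the control paw (268 and 279) and a correlation over spots of 0.83, so values of Jund are uncertain. Over the embryo sections the pair correlated at 0.76 to 0.84. Sums within 5% of a member's were also found for Lrrc19 and Jun in the brain (135 and 136 reads), though these lie 398892 bases apart. In embryo H3K27ac they were found for Fam71a and Atf3 (23 and 24 reads, 5479 bases apart) and for Flvcr2 and Batf (24 and 24, 37452 bases apart). The correlations over spots of the 3 pairs were -0.0080, -0.042 and -0.076.

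The wider lists were compared in the embryo in the same way. For H3K27me3 over H3K27ac, where 12.3% of all genes were above and 11.6% below, 5 of 27 other bZIP partners were above and 1 below, with a median of -0.08. Creb1, the factor bound at CREs, was at 4.91 (561 and 12 reads) and Bach2, which binds AP-1 like sites in lymphocytes, at 4.54 (288 and 7). Of 23 MAP kinase genes, 4 were above and 5 below, with a median of -0.08, and the kinase genes Rps6ka3 and Map3k8 were at 2.76 (321 and 35) and -2.68 (10 and 68). Of 24 serum response and immediate early genes compared, 1 was above and 2 below, with a median of -0.33, and Egr2, a factor of hindbrain segments, and Elk3, a partner of serum response factor, were at -1.69 (25 and 71) and -1.22 (69 and 132). Of 29 AP-1 targets compared, 8 were above and 4 below, with a median of 0.05. The cytokine genes Tnf, Il2 and Csf2 were at 3.87 (438 and 21), 3.54 (112 and 5) and 2.05 (74 and 12), and the collagenase gene Mmp1a at 2.10 (77 and 12).

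For H3K27me3 over H3K4me3, where 13.3% of all genes were above and 11.1% below, the counts above and below were 6 and 1 of 27 bZIP partners (median 0.14), 5 and 4 of 21 MAP kinase genes (-0.0083), 0 and 4 of 24 immediate early genes (0.24) and 4 and 2 of 26 targets (0.16). For H3K27ac over H3K4me3, with 12.9% and 12.3% of all genes, they were 5 and 3 of 27 (0.33), 5 and 2 of 21 (0.07), 6 and 3 of 25 (0.41) and 4 and 5 of 26 (-0.11). A few genes with high H3K4me3 lay lowest in both: Dusp5, a phosphatase that switches ERK off, with 399 H3K4me3 reads was at -5.68 and -5.37, Zfp36, which shortens the life of cytokine mRNAs, with 422 reads at -4.87 and -4.90, Map3k8 with 455 at -5.97 and -3.32, and Mapk3, which encodes an ERK kinase, with 148 at -4.47 and -4.39. Both comparisons use the same H3K4me3 section.

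In the brain, H3K4me3 at these genes was compared with that of the embryo. Of 8 members, 0 were above and 0 below the 2-fold distance, against 7.23% and 11.7% of 11127 genes, whose median before centring was 0.66. The members ran from -0.59 (-1.31 to 0.17) for Batf to 0.46 (-0.36 to 1.28) for Jun, with a median of 0.03. Fos was at -0.36 (-0.75 to 0.06), from 443 and 54 reads. Every interval held 0, and those of 5 of the 8 also reached past a 2-fold difference, with 6 to 54 reads per member in the embryo section. In the wider lists the counts above and below were 2 and 1 of 17 bZIP partners (median -0.04), 1 and 0 of 15 MAP kinase genes (0.16), 1 and 3 of 21 immediate early genes (0.01) and 1 and 3 of 20 targets (-0.13). Fos and Fosl2 were the members with at least 200 reads in the brain, and over its 1200 spots they correlated at 0.038. Fos was in 300 of the 1200 brain spots (22.6 to 27.6%), and its spot counts varied 1.50 times as much as depth and Poisson sampling give, against 0.830 to 1.27 times for the other 7 members.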

How the data were processed

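Signal per gene and array spot was measured in 6 sections. The deposited values are signal that the authors quantile-normalised, with Bowtie2, featureCounts and MACS2 and the builds hg19 and mm9 named per the submitters' processing notes, without versions or roles. Tied genes keep one order in every spot, so each break in that order marks 1 more read, and reads per gene and spot were recovered in this way. A level held by fewer than 5 genes ended the exact zone, and a gene with over 10% of its reads beyond it is a lower bound. The recovery was tested on simulated data for both paws and for embryo H3K27ac and H3K27me3, with the order of tied genes built in. Such a test cannot show whether the deposited values follow that order. The brain and embryo H3K4me3 were not simulated. Summed over spots at each rank, recovered reads equalled the normalised values, in units of 1 read, at 37.4% of ranks in the brain. In the embryo sections this was 50.8 to 51.6%, and in the control and arthritic paws 98.8% and 99.1%. Relative levels, log2 ratios (pseudocount 0.1, centred on the median gene) and Clopper-Pearson 95% intervals were computed with numpy 2.4.6 and scipy 1.17.1 and drawn with matplotlib 3.10.9. The members, gene lists and alternatives were chosen with earlier results of these data known. Every member is given in each section for which it was analysed. In the wider lists up to 4 genes furthest from the median are named, leaving out genes with 3 or fewer reads in a section; of the 3 genes most like a member, the first is printed for most. Neighbours are named where the correlation passed 0.9 or sums lay within 5%. Alternatives were the pseudocount, the deposited values, reads beyond the exact zone, odd or even columns, the mean of spot shares, the share of spots, a filter on low genes, the centring, the 6 columns left out and, added after the data were seen, row 13 left out, the rank per kilobase, the rank without the highest row and spots of at least 1000 reads.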

Additional observations from a re-analysis of the deposited data

How the results depend on the processing

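Jun between the paws, Fosl1 and Junb kept their direction under all alternatives run for the comparisons in which they lay beyond 2-fold. Of the counts and medians over members, 148 values under alternatives stayed close to the reported ones and 11 moved. Of the single members' values, 408 stayed within their counting interval and 25 moved. Jun between the paws gave 9 of these 25, out of its 13 alternatives, so its counting interval does not cover the choice of processing. The embryo intervals are wide, which makes it easy for a value to stay within them. Between the paws the members' median moved to 0.0086 with the deposited values. For embryo H3K27me3 over H3K27ac the number of members above was 0 with a pseudocount of 1. For H3K27me3 over H3K4me3 it was 0 with a pseudocount of 1, 3 in even columns, and 2 with a pseudocount of 0.01, the deposited values, the mean of spot shares or the share of spots. For H3K27ac over H3K4me3, 1 member was below in odd columns, and in even columns 2 were above and 1 below. The cause of these shifts was not tested. The filter on low genes gave no value for Fosl1, Atf3 and Batf between the paws, for Fosl1, Jun, Junb and Batf between brain and embryo, and for Junb in H3K27ac over H3K4me3. No paired analysis was possible because each group is 1 section. Depth limits the embryo most, where 6 reads of Junb stand behind each of 2 marks.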
